A study of Mus musculus with 39 samples.

Results

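The colony-stimulating factors and their receptors were followed in microglial RNA through 7 genes, which are the ligands Csf1 and Il34, their receptor Csf1r, the chains of the GM-CSF receptor Csf2ra, Csf2rb and Csf2rb2, and the G-CSF receptor Csf3r. They were taken by gene symbol, and all 7 were found among the 46333 genes of the female table and among the 54532 genes of the male table. The data came from CD11b+ microglia that were pulled from the mouse cerebrum with magnetic beads, which also bind other myeloid cells. The mice were WT (C57Bl6) or 5XFAD, a line in which the neuronal Thy1 promoter drives mutant human transgenes and amyloid plaques form. Both genotypes were kept from 4 months of age in chronic intermittent hypoxia (CIH) or in normoxia (NX, 21% O2 throughout). Per the labels, CIH swung between 21% and 6.5% O2 in 90-s intervals for 8 h of the daily sleep phase. Females were 10 months old when microglia were collected, in 4 libraries of WT NX and 5 each of WT CIH, of 5XFAD under NX and of 5XFAD under CIH. Males were 8 months old, with 5 libraries in each of the same 4 groups. Sex and age therefore cannot be told apart, and the tables were analysed one by one.

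CSF1 and IL-34 are the ligands of CSF1R, a receptor tyrosine kinase on which microglia depend for survival and proliferation. GM-CSF and G-CSF act through cytokine receptors without a kinase of their own, which recruit JAK kinases and STAT transcription factors. The GM-CSF receptor pairs the ligand-binding alpha chain Csf2ra with the beta chain Csf2rb, which IL-3 and IL-5 receptors share, and the mouse also has Csf2rb2, a neighbouring beta chain gene that serves the IL-3 receptor.

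Total counts were 14731683 to 25906121 in females and 13457293 to 23095627 in males. Summed CPM (counts scaled to library size with TMM factors) of 10 microglia markers ran from 24018 to 27686 in WT females, 19901 to 21807 in 5XFAD females, 22144 to 27904 in WT males and 17422 to 21050 in 5XFAD males, with the labelled cell type's markers abundant in all 8 groups. F 5XFAD NX 4, a female library labelled 5XFAD NX, stood apart from its group: Csf1 and Csf2ra were at WT levels in it, and Csf1r was within the 5XFAD range. The values printed for the female comparison of WT NX with 5XFAD NX are given without it as well where a call or a list's count changed. For Csf1 and Csf2ra, tests without F 5XFAD NX 4 rest on the values that set it apart and are given as descriptions. All levels are normalised FPKM, computed as counts divided by gene model length and by the TMM-scaled library size. The 2 tables use gene models of different length (Csf2ra 6254 bases in females and 1849 in males), so levels were compared between genes and groups within a table and never across tables. Differential expression was tested with edgeR's quasi-likelihood F test and Benjamini-Hochberg adjustment over all genes tested, and every adjusted p below is from it. A log2FC is positive when the group named second is higher, and brackets give its 95% confidence interval. Genes with FDR < 0.05 are said to rise or fall, and DEGs also had an absolute log2FC above 1.

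The 5 receptor genes lay above both ligands in WT microglia, Csf1r by far and Csf2rb2 in females by about 2 times over Csf1. In female WT NX, the median level was 2296 for Csf1r, 366 for Csf3r, 36.7 for Csf2rb, 35.3 for Csf2ra, 27.2 for Csf2rb2, 13.5 for Csf1 and 0.185 for Il34. Csf2rb and Csf2ra overlapped between libraries, and every other neighbouring pair in this order was separate. In male WT NX the order was Csf1r (2077), Csf3r (270), Csf2ra (118), Csf2rb2 (19.998), Csf2rb (18.8), Csf1 (5.57) and Il34 (0.270), where the libraries of Csf2rb2 and Csf2rb overlapped. In 5XFAD microglia Csf1 moved up from the sixth place, to the third in females and to the fourth in males. These places depend on gene model length, which differs for Csf2ra between the tables, so they are not set side by side. CPM leaves length out, and by it the 5XFAD NX means of Csf1 and Csf2ra were 623 and 314 in females. In males they were 561 and 357. The median level of Csf1 was 239 in female 5XFAD NX and 217 in female 5XFAD CIH, below Csf3r in both groups. In males its median was 108 in 5XFAD NX and 113 in 5XFAD CIH, below Csf2ra. In male 5XFAD CIH the libraries of Csf3r (median 305) and Csf2ra (median 247) overlapped, and Il34 was the lowest of the 7 genes in all 8 groups.

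**Figure D1:**
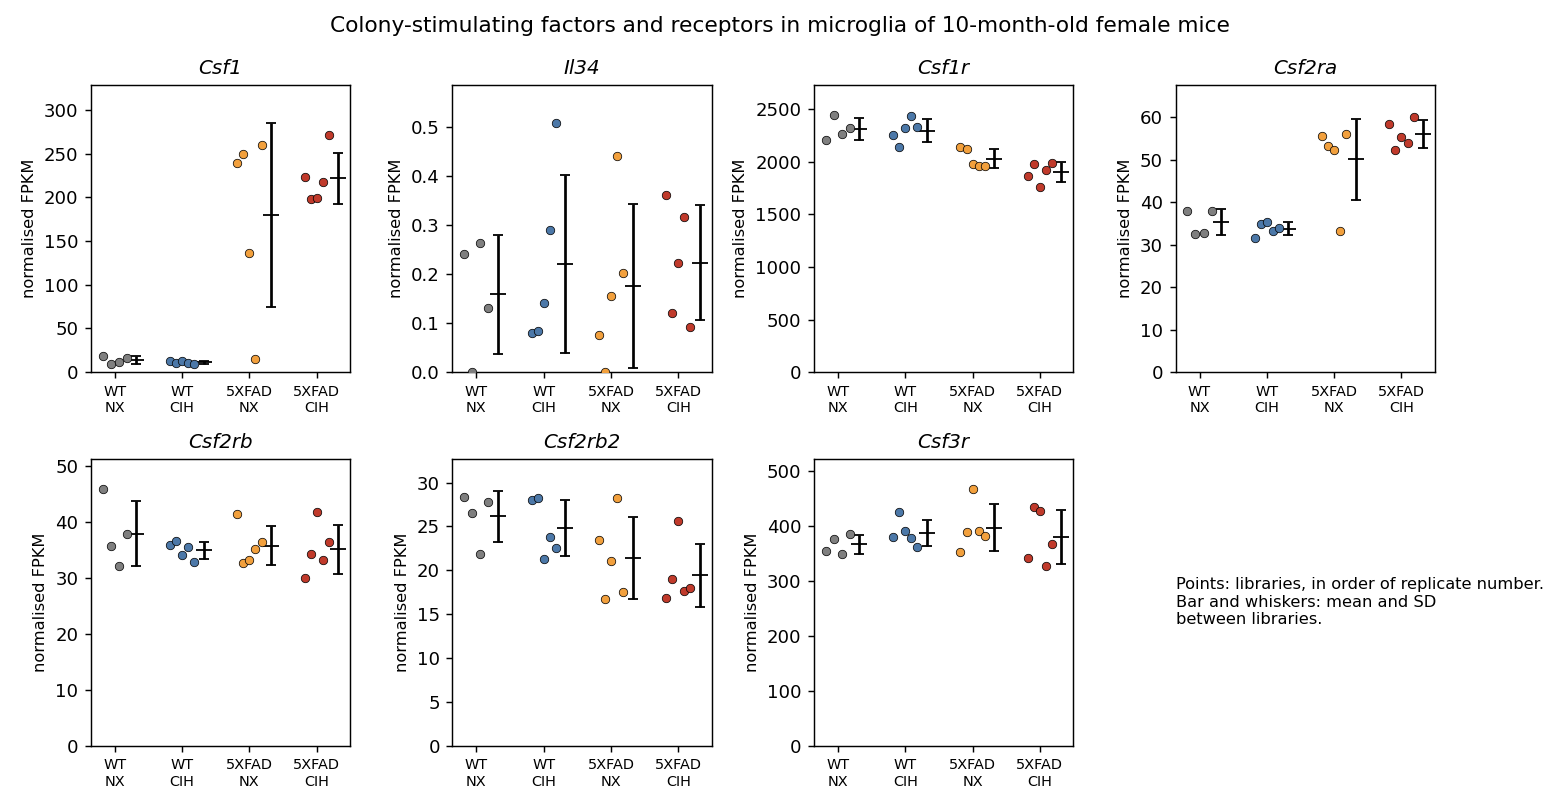
Levels of the 7 genes in each female library (normalised FPKM, linear axis from 0, 4 groups on the x axis), with the mean and SD between libraries beside the points. Csf1 was at 8.94 to 18.9 in WT libraries and at 136 to 271 in 5XFAD libraries other than F 5XFAD NX 4, which was at 14.5.

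**Figure D2:**
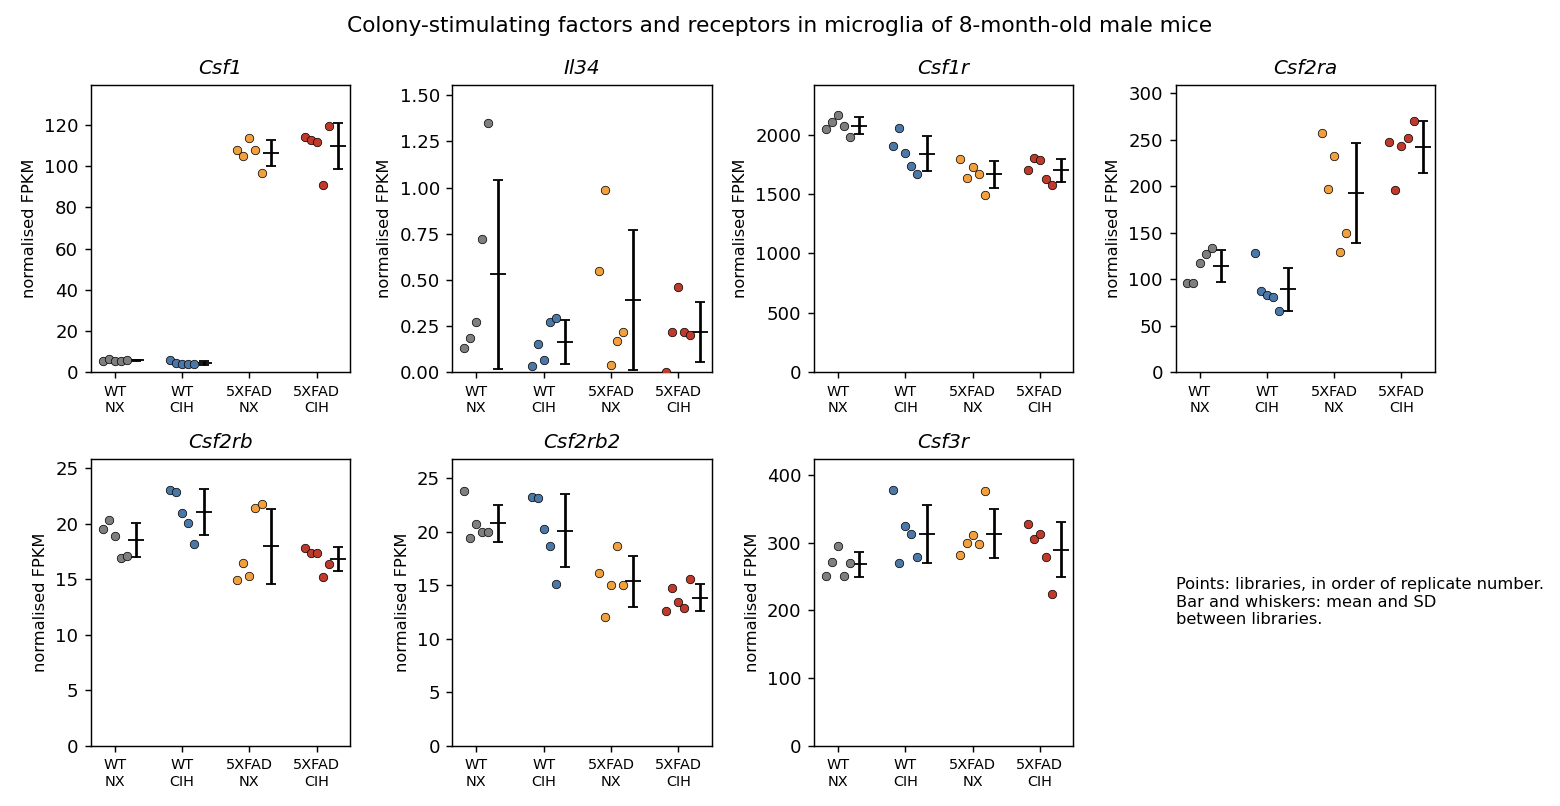
Levels of the 7 genes in each male library, drawn as for females (normalised FPKM, linear axis from 0). Csf1 was at 4.00 to 6.13 in WT libraries and at 90.8 to 120 in 5XFAD libraries, and Csf2ra was at 129 and 150 in a pair of 5XFAD NX libraries against 197 to 257 in the other 3.

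Csf1 (chr3:107741048-107760469, minus strand, GRCm38) encodes the ligand M-CSF. It was about 13 to 25 times higher in 5XFAD than in WT microglia of both sexes, under NX and under CIH. In females its level was 18.9, 8.94, 10.98 and 16.1 in WT NX, and 239, 250, 136, 14.5 and 260 in 5XFAD NX. The value of 14.5 belonged to F 5XFAD NX 4 and lay inside the WT range, and the other 4 5XFAD NX libraries were all above every WT library. WT NX averaged 13.7 ± 4.57 (SD, n = 4). The 5XFAD NX mean was 180 ± 105 (SD, n = 5), or 221 ± 57.7 (SD, n = 4) without F 5XFAD NX 4. Csf1 rose in female 5XFAD NX against WT NX with a log2FC of 3.71 (2.13 to 5.28), or 13.1-fold, and an adjusted p of 0.0185. Without F 5XFAD NX 4 the log2FC was 4.00 (3.36 to 4.64) and the adjusted p was 9.21e-06. The call was lost, at nearly the same log2FC, when F WT NX 2 (adjusted p = 0.0547), F WT NX 3 (0.0687), F WT NX 4 (0.0563) or F 5XFAD NX 5 (0.0507) was left out with F 5XFAD NX 4 kept in. Under CIH the female levels were 12.5, 10.3, 13.1, 10.7 and 9.49 in WT and 223, 198, 199, 217 and 271 in 5XFAD. The groups did not overlap, and Csf1 rose with a log2FC of 4.32 (4.06 to 4.58), or 19.96-fold (adjusted p = 3.08e-11).

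In males, Csf1 was at 5.57, 6.13, 5.36, 5.18 and 5.83 in WT NX and at 108, 105, 114, 108 and 96.5 in 5XFAD NX. The spread within each group was small beside the gap between them, with means of 5.62 ± 0.377 and 106 ± 6.28 (SD, n = 5 each). Csf1 rose with a log2FC of 4.24 (4.01 to 4.48), or 18.9-fold (adjusted p = 1.85e-10). Under CIH, WT libraries were at 5.95, 4.201, 4.11, 4.00 and 4.05 and 5XFAD libraries at 114, 113, 112, 90.8 and 120. The groups were again separate, with a log2FC of 4.63 (4.32 to 4.94), or 24.8-fold, and an adjusted p of 2.05e-11. In bulk RNA, a change in the share of cells that express a gene and a change in RNA per cell cannot be told apart.

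Csf1 was the only 1 of the 6 tested genes to be a DEG between WT NX and 5XFAD NX in females, where 5.99% of all genes tested were DEGs (13.3% without F 5XFAD NX 4, and 44% at FDR < 0.05 alone), and between WT CIH and 5XFAD CIH in females, where 13% were. Over all genes the female NX count of 869 DEGs was 27 without F WT NX 3 and 525 or lower without any 1 of the other libraries besides F 5XFAD NX 4. In males Csf1 was the only DEG of 7 tested under NX (8.25% of all genes). It was 1 of 2 DEGs of 6 tested under CIH, beside Csf2ra (18.7% of all genes). At FDR < 0.05 without a fold limit, 2 of 6 genes passed in females under NX (13.9% of all genes) and 4 of 6 under CIH (51.9%). Without F 5XFAD NX 4, 2 of the 6 rose and 1 fell under NX, where 44% of all genes passed. In males 4 of 7 passed under NX (17.8%) and 4 of 6 under CIH (49%). In normalised FPKM the groups did not overlap for 1 of 6 genes in females under NX and 3 of 6 under CIH. In males this held for 3 of 7 under NX and 3 of 6 under CIH. The shares of all genes were 11.1%, 44.9%, 19% and 45.9%. These shares, and those below, were counted on CPM scaled by total counts. On that scale the member counts were the same, except between WT CIH and 5XFAD CIH males. There all 6 genes tested were separate, including Csf3r, at 1077 to 1507 CPM in WT and 625 to 1067 CPM in 5XFAD.

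**Figure D3:**
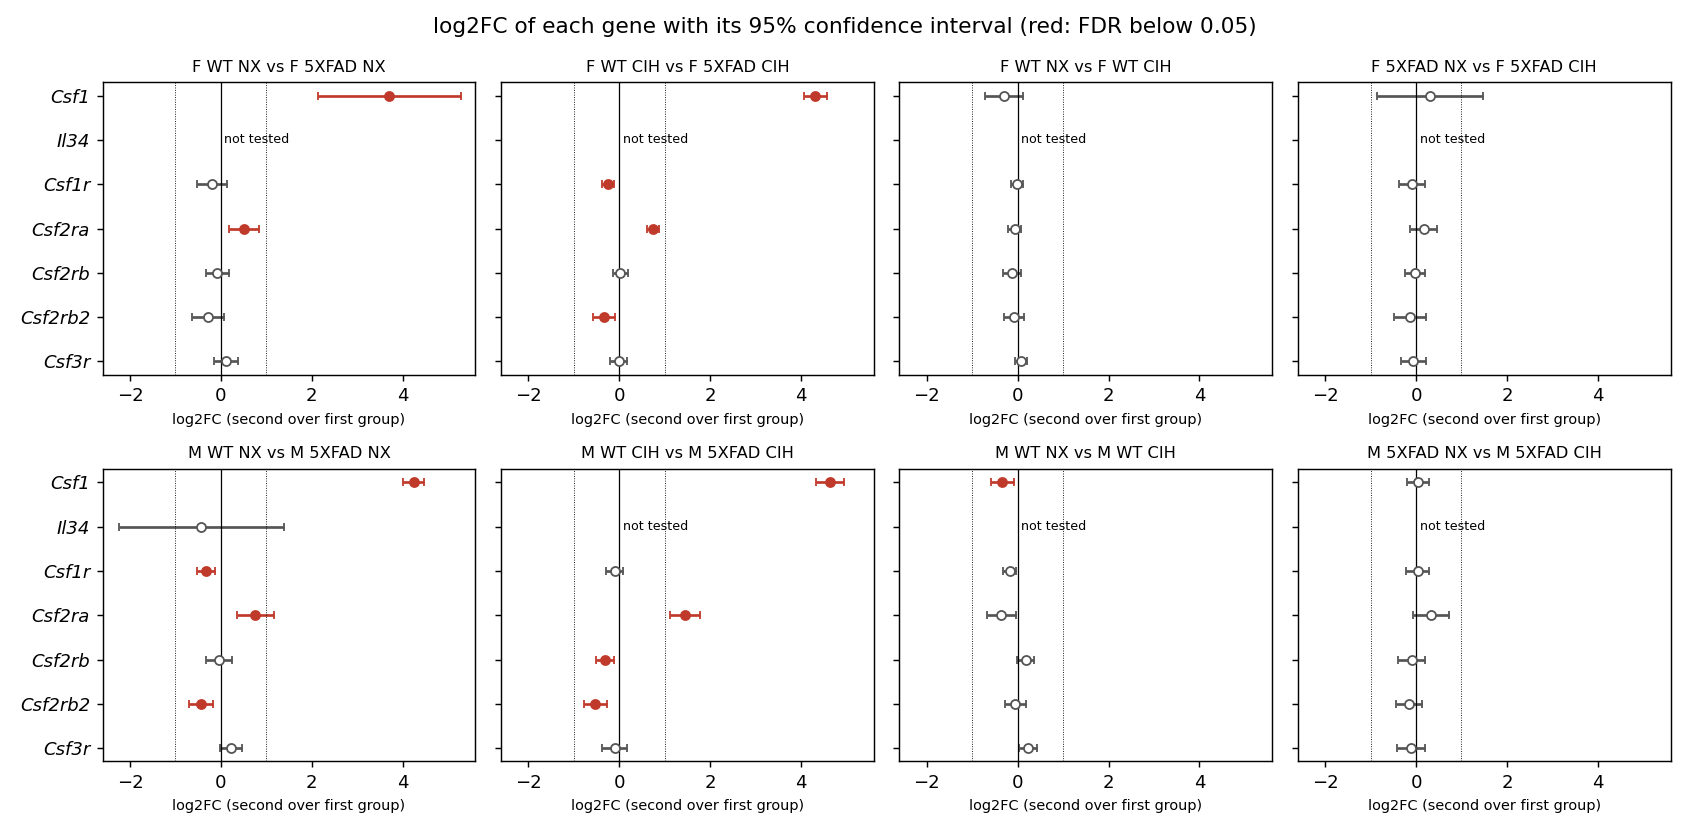
The log2FC of each gene (x axis, second group over first) with its 95% confidence interval, in the 4 female and 4 male comparisons. Red points passed FDR < 0.05, dotted lines mark a log2FC of 1 in either direction, and Csf1 lay between 3.71 and 4.63 in the genotype comparisons and between -0.33 and 0.31 in the comparisons of CIH with NX.

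The promoters of the members are shown as the 250 bases before the start site, since Csf1 and Csf2ra were the genes called and Csf2rb2 moved the other way in 3 of 4 genotype comparisons. Sequences are from RefSeq (GRCm38.p6), read 5′ to 3′ on the gene's strand, with the start sites of that table, in which 4 of the 7 genes were found (Csf1, Csf2ra, Csf2rb2 and Csf3r), and the windows of the first 3 are printed. Capitals mark matches on either strand to GAGGAA (an element bound by PU.1, the myeloid factor Spi1), TGANTCA (AP-1), ACGTG (the core of hypoxia response elements) or TTCNNNGAA (STAT). The windows are chr3:107760470-107760719 for Csf1, chr19:61228419-61228668 for Csf2ra and chr15:78305722-78305971 for Csf2rb2, all on the minus strand.
Csf1: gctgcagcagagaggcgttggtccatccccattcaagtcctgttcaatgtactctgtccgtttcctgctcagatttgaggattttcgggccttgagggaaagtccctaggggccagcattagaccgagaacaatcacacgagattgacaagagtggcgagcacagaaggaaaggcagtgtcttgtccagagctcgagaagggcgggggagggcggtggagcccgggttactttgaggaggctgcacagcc
Csf2ra: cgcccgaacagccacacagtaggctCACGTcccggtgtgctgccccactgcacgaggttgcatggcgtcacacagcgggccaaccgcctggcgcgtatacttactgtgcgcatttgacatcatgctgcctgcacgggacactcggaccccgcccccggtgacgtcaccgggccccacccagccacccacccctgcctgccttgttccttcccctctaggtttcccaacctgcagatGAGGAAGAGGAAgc
Csf2rb2: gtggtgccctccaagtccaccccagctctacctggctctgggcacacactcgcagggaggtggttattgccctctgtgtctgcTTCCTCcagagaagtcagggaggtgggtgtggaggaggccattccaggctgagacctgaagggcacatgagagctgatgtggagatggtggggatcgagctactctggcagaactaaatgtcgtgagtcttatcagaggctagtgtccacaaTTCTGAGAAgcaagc
In the Csf1 window none of the 4 motifs had a match. Csf2ra held a pair of adjoining GAGGAA matches that begin 14 and 8 bases before the start site, and CACGT, which is ACGTG on the other strand, 225 bases before it. The RefSeq span of Csf2ra reaches position 61228461, inside this window, so both GAGGAA matches lie within that span. Csf2rb2 held TTCCTC, which is GAGGAA on the other strand, 167 bases before the start site, and TTCTGAGAA 15 bases before it. Csf3r, which passed the test in no comparison, also held GAGGAA, 86 bases before the start site of the table, which lies inside the deposited locus. Of 27025 mouse promoters of the same length, 23.1% held GAGGAA, 6.87% TGANTCA, 16.6% ACGTG and 7.18% TTCNNNGAA, so a match is common and is given as a description of the letters.

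Il34 (chr8:110741829-110805924, minus strand), which adult neurons make, was close to absent. It had 0 to 21 counts in female libraries and 0 to 46 in male libraries, and a count of 0 allows up to 0.183 CPM in F WT NX 2, 0.175 in F 5XFAD NX 2 and 0.209 in M 5XFAD CIH 1, for counting error only. The highest level in any male library was 1.35, in M WT NX 5, against 0.130, 0.183, 0.270 and 0.719 in the other 4 WT NX males, and in females it was 0.507, in F WT CIH 5. Il34 passed the filter on low counts in the male comparison of WT NX with 5XFAD NX alone among the 8 pairs, where the log2FC was -0.43 (-2.24 to 1.39, adjusted p = 0.799). Its interval spans changes in either direction, so no difference was detectable at these counts and with this spread between libraries. Neuron markers were at 3.77 to 23.8 CPM summed over 8 genes in all libraries of both sexes. The annotation has Gm15894 and Gm15895 on the opposite strand of the Il34 locus, and without strand their reads cannot be told apart from those of Il34.

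**Figure D4:**
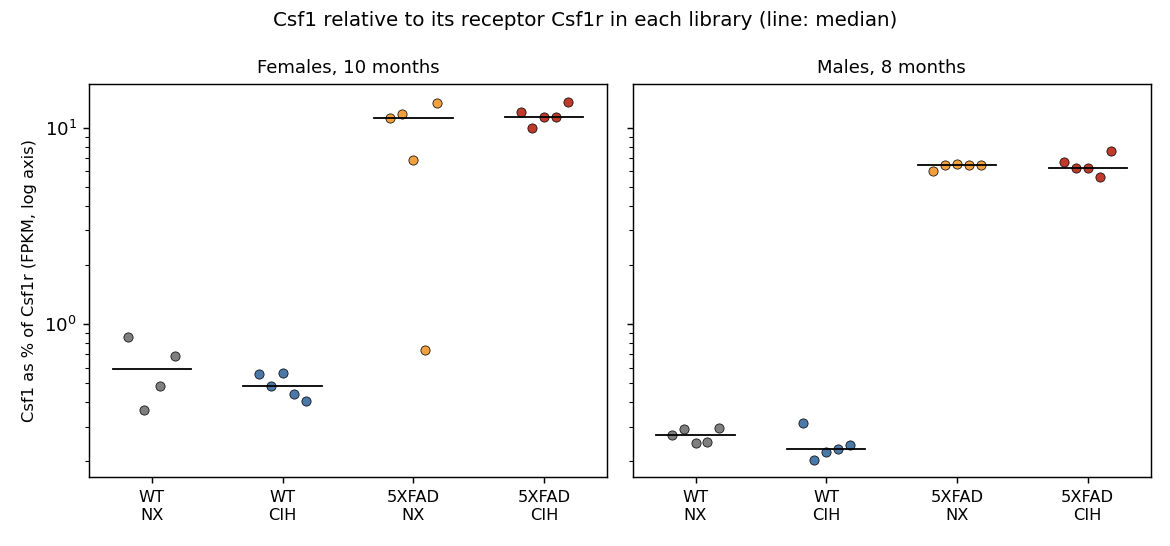
Csf1 as a percentage of Csf1r in each library (FPKM, log axis), with the median of each group as a line. WT libraries lay between 0.204% and 0.855%, and 5XFAD libraries lay between 5.58% and 13.6% with the exception of F 5XFAD NX 4 at 0.741%.

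The ratio of Csf1 to Csf1r within a library does not depend on how libraries are scaled. In females Csf1 was at 0.365% to 0.855% of Csf1r in WT NX and at 11.2%, 11.8%, 6.86%, 0.741% and 13.3% in 5XFAD NX. Under CIH it ran from 0.406% to 0.566% in WT and from 10.0% to 13.6% in 5XFAD. In males the ranges were 0.247% to 0.294% in WT NX, 6.01% to 6.57% in 5XFAD NX, 0.204% to 0.312% in WT CIH and 5.58% to 7.57% in 5XFAD CIH. The log2 ratio differed by 4.57 between WT CIH and 5XFAD CIH females, by 4.56 between WT NX and 5XFAD NX males and by 4.75 between WT CIH and 5XFAD CIH males (two-sided exact permutation test, p = 0.00794 for each, adjusted over 8 comparisons 0.0212), and 0.00794 is the smallest p that 5 against 5 libraries can give. In female WT NX vs 5XFAD NX it differed by 3.44 (exact permutation p = 0.0317, adjusted 0.0635), and by 4.202 without F 5XFAD NX 4 (exact permutation p = 0.0286, adjusted 0.0571). The p of 0.0286 is the smallest that 4 against 4 libraries can give, and beside the other comparisons it could not pass after adjustment. CIH against NX gave differences of -0.23 in WT and 0.91 in 5XFAD females, and of -0.17 in WT and 0.01 in 5XFAD males (exact permutation p = 0.413, 0.294, 0.183 and 0.857). Without F 5XFAD NX 4 the difference in 5XFAD females was 0.145 (exact permutation p = 0.587). In WT females it ran from -0.44 without F WT NX 2 to -0.03 without F WT NX 1. In WT males the difference was -0.27 without M WT CIH 1 (exact permutation p = 0.0159, adjusted 0.0317).

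Csf1r (chr18:61105572-61132149, plus strand), the receptor of both ligands, was the most abundant of the 7 genes and was lower in 5XFAD microglia by a small amount. In females its level was 2209, 2450, 2265 and 2328 in WT NX and 2141, 2119, 1979, 1962 and 1960 in 5XFAD NX. The groups did not overlap, but the log2FC of -0.19 (-0.52 to 0.15) did not pass the test (adjusted p = 0.398), and it was -0.18 (adjusted p = 0.153) without F 5XFAD NX 4. By DESeq2 it passed, at -0.16 (adjusted p = 0.0295). Under CIH, female WT libraries were at 2252, 2142, 2321, 2439 and 2335 and 5XFAD libraries at 1865, 1981, 1764, 1920 and 1994. These groups were separate, and Csf1r fell by 0.25 on the log2 scale (-0.39 to -0.12, adjusted p = 0.00377), or 1.19-fold lower. With scaling by total counts the log2FC was -0.45 (adjusted p = 1.09e-05), beside an all-gene median of -0.21, and with no filter on low counts the call was lost (-0.26, adjusted p = 0.0740). In males it was at 2053, 2112, 2167, 2077 and 1981 in WT NX and at 1797, 1637, 1731, 1667 and 1496 in 5XFAD NX. Csf1r fell by 0.32 in this comparison (-0.52 to -0.12, adjusted p = 0.0303). The adjusted p rose to between 0.0551 and 0.0748 when any of M WT NX 1 to 5 or M 5XFAD NX 2 was left out, with the log2FC between -0.33 and -0.30. The call was also lost by edgeR's likelihood ratio test (adjusted p = 0.0540), with no filter (0.199) and by limma (0.258 and 0.281), and scaling by total counts gave -0.51 (adjusted p = 0.000363), beside an all-gene median of -0.16. Under CIH, male WT was at 1904, 2058, 1843, 1735 and 1670 and 5XFAD at 1707, 1808, 1785, 1627.5 and 1579.99, which overlapped. Its log2FC of -0.10 (-0.29 to 0.09) did not pass the test (adjusted p = 0.356). Scaling by total counts gave -0.47 (adjusted p = 0.000416) here, in a comparison where that scaling put the median of all genes at -0.43.

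Microglia markers were lower beside Csf1r. Of the 10 genes on that list, 5 fell in female and 6 in male 5XFAD NX, and 6 fell under CIH in either sex, with 1 rising in females and 2 in males (7 fell and 1 rose in females under NX without F 5XFAD NX 4). Over all genes, 13.9% and 17.8% passed FDR < 0.05 under NX in females and males (44% in females without F 5XFAD NX 4), and 51.9% and 49% under CIH. The microglia markers had a median log2FC of -0.43 and -0.50 in females under NX and CIH and -0.49 and -0.37 in males, against a median of -0.02, -0.02, 0.02 and -0.06 over all genes tested. Of 8 markers of border macrophages, another cell type that depends on CSF1R, 6 fell in females under NX and 6 under CIH (medians -1.25 and -1.08), and 5 and 3 fell in males (-1.06 and -0.39), with summed levels of 149 to 342 CPM in WT and 75.3 to 168 CPM in 5XFAD females, and 147 to 329 and 103 to 193 CPM in males. The part of either list in the lower Csf1r was not tested. Reads of Hmgxb3, which overlaps Csf1r on the opposite strand, cannot be told apart from Csf1r reads without strand.

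Csf2ra (chr19:61224402-61228418, minus strand), the alpha chain that binds GM-CSF, was higher in 5XFAD in all 4 genotype comparisons and passed the test in each. In females its level was 37.9, 32.5, 32.8 and 38.0 in WT NX and 55.7, 53.2, 52.4, 33.3 and 56.2 in 5XFAD NX. The value of 33.3 was again F 5XFAD NX 4, and the other 4 5XFAD NX libraries were above all WT libraries. Csf2ra rose with a log2FC of 0.51 (0.18 to 0.84), close to the threshold (adjusted p = 0.0491), and of 0.61 (0.45 to 0.78, adjusted p = 0.000178) without F 5XFAD NX 4. Leaving out any 1 of the other 8 libraries, F WT NX 1 to 4 and F 5XFAD NX 1, 2, 3 and 5, lost the call (log2FC 0.46 to 0.54, adjusted p 0.0751 to 0.124), as did testing with no filter on low counts (adjusted p = 0.0694) and limma (0.0549). Under CIH it was at 31.6, 35.0, 35.3, 33.1 and 34.0 in WT and at 58.5, 52.2, 55.4, 53.9 and 60.1 in 5XFAD. The groups were separate, with a log2FC of 0.74 (0.62 to 0.87, adjusted p = 3.48e-07).

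In males Csf2ra was at 95.6, 96.0, 118, 127 and 133 in WT NX and at 257, 197, 232, 129 and 150 in 5XFAD NX. The 2 lowest 5XFAD libraries, M 5XFAD NX 4 and 5, reached into or close to the WT range, although Csf1 was at 108 and 96.5 in them, far above WT. The log2FC was 0.76 (0.36 to 1.17, adjusted p = 0.0129), and it stayed between 0.64 and 0.88 with any 1 library left out (adjusted p 0.0026 to 0.0395). Under CIH the levels were 128, 87.2, 83.2, 80.7 and 65.4 in WT and 247, 196, 244, 251.8 and 271 in 5XFAD. The groups were separate, and Csf2ra was a DEG with a log2FC of 1.45 (1.11 to 1.79, adjusted p = 3.9e-06), or 2.73-fold. Without M WT CIH 1, the highest WT CIH library, the log2FC was 1.63.

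The TMM factor, which corrects for the makeup of each library, differed between these libraries, and a lower factor raises every normalised level by construction. In males the factor was 1.02 and 1.06 in M 5XFAD NX 4 and 5, against 0.843 to 0.908 in the other 3 libraries of the group and 1.04 to 1.09 in WT NX. In females it was 1.16 in F 5XFAD NX 4 and 0.874 to 0.967 in the other 4. With scaling by total counts, male Csf2ra still passed the test under both treatments (log2FC 0.54 with adjusted p = 0.0194, and 1.08 with adjusted p = 1.63e-05). In females it gave 0.33 (adjusted p = 0.0655) under NX and 0.55 (adjusted p = 3.40e-06) under CIH. The part of library makeup in the Csf2ra differences was not tested further.

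**Figure D5:**
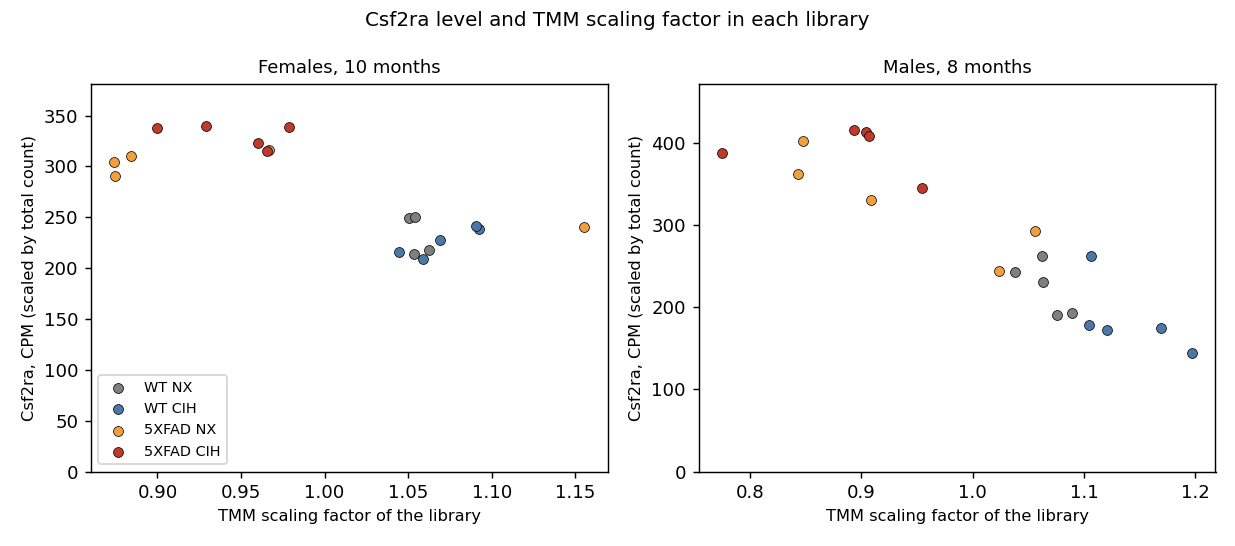
Csf2ra counts scaled by the total count alone (y axis, CPM from 0), which do not contain the TMM factor, against that factor (x axis) for each library, coloured by group. F 5XFAD NX 4 was at 241 CPM with a factor of 1.16, and M 5XFAD NX 4 and 5 were at 244 and 292 CPM with factors of 1.02 and 1.06, against 331 to 403 CPM in the other 3 libraries of that group.

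Csf2rb (chr15:78325752-78353847, plus strand) and Csf2rb2 (chr15:78282507-78305721, minus strand) are neighbouring genes of nearly the same sequence, so reads may have been split between them and the values of each are uncertain to that extent. Csf2rb overlapped between the groups of females, at 32.04 to 45.8 in WT NX, 32.7 to 41.3 in 5XFAD NX, 32.8 to 36.5 in WT CIH and 29.9 to 41.7 in 5XFAD CIH. Its log2FC between genotypes was -0.08 (-0.33 to 0.17, adjusted p = 0.633) under NX and 0.02 (-0.14 to 0.19, adjusted p = 0.833) under CIH. In males it was at 19.5, 20.3, 18.8, 16.9 and 17.0 in WT NX and at 15.0, 16.4, 15.2, 21.4 and 21.7 in 5XFAD NX. The 2 highest values belonged to M 5XFAD NX 4 and 5, the libraries that were low in Csf2ra, and the log2FC was -0.04 (-0.33 to 0.25, adjusted p = 0.879). Under CIH the male levels were 23.0, 22.9, 21.0, 20.1 and 18.1 in WT and 17.8, 17.3, 17.4, 15.2 and 16.3 in 5XFAD. Here the groups were separate and Csf2rb fell by 0.31 on the log2 scale (-0.51 to -0.11, adjusted p = 0.0119), or by 0.68 (adjusted p = 5.32e-05) with scaling by total counts, beside an all-gene median of -0.43.

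Csf2rb2 was lower in 5XFAD in all 4 genotype comparisons and fell in 3 of them. In females it was at 28.4, 26.5, 21.9 and 27.8 in WT NX and at 23.5, 16.8, 21.1, 28.3 and 17.6 in 5XFAD NX. The groups overlapped, with the highest 5XFAD value in F 5XFAD NX 4, and the log2FC was -0.28 (-0.64 to 0.07, adjusted p = 0.23). Without that library Csf2rb2 fell by 0.42 (-0.68 to -0.15, adjusted p = 0.0185). Under CIH it was at 28.0, 28.3, 21.3, 23.8 and 22.6 in WT and at 16.8, 19.02, 25.6, 17.7 and 17.9 in 5XFAD. It fell by 0.34 (-0.59 to -0.09, adjusted p = 0.0254), or by 0.53 (adjusted p = 0.00305) with scaling by total counts, beside an all-gene median of -0.21. The call was lost without any 1 of F WT CIH 1, F WT CIH 2, F 5XFAD CIH 1, 2, 4 or 5 (adjusted p 0.0503 to 0.0675), and it was strongest without F 5XFAD CIH 3, the library at 25.6 (log2FC -0.45, adjusted p = 0.000937).

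In males, Csf2rb2 was at 23.8, 19.4, 20.7, 19.98 and 19.998 in WT NX and at 16.1, 11.99, 15.0, 18.6 and 15.0 in 5XFAD NX. The groups did not overlap, and Csf2rb2 fell by 0.43 on the log2 scale (-0.70 to -0.16, adjusted p = 0.0296). Leaving out M WT NX 1, 3, 4 or 5, or M 5XFAD NX 2 or 3, moved the adjusted p to between 0.051 and 0.0855 (log2FC -0.45 to -0.36), and with no filter on low counts it was 0.052. Under CIH it was at 23.3, 23.1, 20.2, 18.6 and 15.1 in WT and at 12.6, 14.7, 13.4, 12.9 and 15.5 in 5XFAD, and it fell by 0.52 (-0.78 to -0.27, adjusted p = 0.00237), or by 0.90 (adjusted p = 1.41e-05) with scaling by total counts, beside an all-gene median of -0.43. Csf2rb2 made up a median of 41.5% and 40.8% of the summed level of both beta chain genes in WT NX and WT CIH females and 36.2% and 35.7% in 5XFAD NX and 5XFAD CIH females. In males these shares were 54.0% and 49.1% in WT and 46.6% and 45.8% in 5XFAD.

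Csf3r (chr4:126024550-126044440, plus strand), the G-CSF receptor, did not pass the test in any comparison. In females it was at 354, 377, 349 and 385 in WT NX, 353, 388, 468, 391 and 381 in 5XFAD NX, 379, 425, 391, 379 and 361 in WT CIH and 342, 434, 426, 326 and 367 in 5XFAD CIH. All 4 groups overlapped, and the log2FC between genotypes was 0.12 (-0.14 to 0.37, adjusted p = 0.496) under NX and -0.01 (-0.20 to 0.17, adjusted p = 0.898) under CIH. In males it was at 251, 271, 295, 251 and 270 in WT NX and at 282, 299, 311, 298 and 376 in 5XFAD NX, with a log2FC of 0.23 (-0.01 to 0.47, adjusted p = 0.181). Under CIH it was at 378, 270, 324, 313 and 278 in WT and at 327, 305, 312, 279 and 224 in 5XFAD, with a log2FC of -0.10 (-0.37 to 0.17, adjusted p = 0.526). With scaling by total counts this last value was -0.46 (adjusted p = 0.00993), beside the all-gene median of -0.43.

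Neutrophils also express Csf3r, and RNA of neutrophil markers was detected. The sum of 9 such markers was 10.6 to 272 CPM in females, highest in F 5XFAD NX 4. In males it was 236 to 1230 CPM in WT NX, 71.4 to 1290 CPM in 5XFAD NX, 112 to 326 CPM in WT CIH and 56.7 to 211 CPM in 5XFAD CIH. Between genotypes 0 of these markers passed under NX in either sex, and 3 of 8 tested fell under CIH in females and 3 of 9 in males, where 51.9% and 49% of all genes passed (under NX 13.9% and 17.8% did). Without F 5XFAD NX 4, 2 of 8 fell in females under NX, where 44% of all genes passed. Their part in the Csf3r values was not tested.

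Within a genotype, CIH was set against NX. In WT females, 0 of 6 genes tested were DEGs, and 0% of all genes were by edgeR's test, with 565 genes at an unadjusted p under 0.05, 0 DEGs by DESeq2 or limma and 21 by edgeR with no filter. The groups did not overlap for 0 of 6 genes (1.04% of all genes). The log2FC ran from -0.29 (-0.71 to 0.12) for Csf1 to 0.08 (-0.06 to 0.21) for Csf3r, with adjusted p from 0.96 to 0.994, and none had an unadjusted p under 0.05. In 5XFAD females 0 of 6 were DEGs (0% of all genes by edgeR, 470 at an unadjusted p under 0.05, 0 by DESeq2 or limma) and 0 of 6 had groups that did not overlap (0.364% of all genes). Csf1 had a log2FC of 0.31 (-0.86 to 1.48), or 0.02 (-0.35 to 0.39) without F 5XFAD NX 4. That library was set apart by its Csf1 level among others, so the narrower interval without it does not bound the change of Csf1. In 5XFAD males 0 of 6 were DEGs (0% of all genes by edgeR, 473 at an unadjusted p under 0.05, 1 DEG by DESeq2 and by the likelihood ratio test, 0 by limma) and 0 of 6 had groups that did not overlap (0.921% of all genes), with a log2FC of 0.05 (-0.19 to 0.29) for Csf1, 0.03 (-0.21 to 0.28) for Csf1r and 0.33 (-0.06 to 0.72) for Csf2ra.

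In WT males, 0 of 6 genes were DEGs where 2.51% of all genes (376) were, a count that was 0 with all 4 groups in one fit (4491 genes at an unadjusted p under 0.05), 621 without M WT NX 1, 639 with no filter and 126 by limma on log2(FPKM + 1). Of the 6 genes, 1 passed FDR < 0.05 alone, where 28.6% of all genes did, and the groups did not overlap for 0 of 6 (18.2% of all genes). The gene that passed was Csf1, which fell by 0.33 on the log2 scale (-0.59 to -0.08) with an adjusted p of 0.049976, at the threshold. Its WT CIH libraries 2 to 5 were at 4.00 to 4.201, below all WT NX libraries (5.18 to 6.13), and M WT CIH 1 was at 5.95. Without M WT CIH 1 the log2FC was -0.45 (adjusted p = 0.00352), and without any 1 of the other 9 libraries the adjusted p was 0.0534 to 0.122. With scaling by total counts Csf1 had -0.24 (adjusted p = 0.143), and with all 4 groups in one fit -0.33 (adjusted p = 0.0752). M WT CIH 1 was also the highest of its group for Csf2ra (128 against 65.4 to 87.2). Csf2ra had a log2FC of -0.36 (-0.68 to -0.04, adjusted p = 0.0861) with it and -0.52 (adjusted p = 0.00368) without it, and -0.32 (adjusted p = 0.0144) with no filter on low counts. Csf1r had -0.18 (adjusted p = 0.0662), or -0.22 (adjusted p = 0.0296) without M WT CIH 2. Csf3r had 0.22 (adjusted p = 0.0904), or 0.27 (adjusted p = 0.0477) without M WT CIH 2 and 0.32 (adjusted p = 0.0131) with scaling by total counts, and 0.24 (adjusted p = 0.0319) by DESeq2. Csf2rb had 0.18 (adjusted p = 0.137), or 0.27 (adjusted p = 0.0219) with that scaling. Beside these values, 6 of 9 neutrophil markers and 3 of 5 monocyte markers fell in WT CIH males, from 236 to 1230 CPM down to 112 to 326 CPM and from 41.3 to 104 CPM down to 28.6 to 51.1 CPM in sum. Of 10 microglia markers 5 fell and 0 rose (median log2FC -0.18), from 24876 to 27904 CPM down to 22144 to 24766 CPM in sum, and of 8 border macrophage markers 3 fell and 0 rose (median -0.28). The part of these lists in the values of the 6 genes was not tested.

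The difference of the genotype effects between CIH and NX was tested as an interaction over the 4 groups of a table. In females 0 of 6 genes passed (0% of all genes by edgeR, 589 at an unadjusted p under 0.05, 0 by DESeq2 or limma), and Csf1 had an interaction log2FC of 0.59 (-0.74 to 1.92, adjusted p = 0.952), or 0.30 (-0.28 to 0.89) without F 5XFAD NX 4. In males 0 of 7 passed (0% of all genes by edgeR's quasi-likelihood test, 3857 at an unadjusted p under 0.05). Over all genes there were 175 DEGs by edgeR's likelihood ratio test, 790 with no filter, 478 without M 5XFAD NX 1, 308 by DESeq2 and 0 by limma. Of the 7 genes, 3 had an unadjusted p under 0.05 from edgeR's quasi-likelihood test. By edgeR's test they were Csf2ra at 0.68 (0.15 to 1.21, adjusted p = 0.133, or 0.0325 with no filter on low counts), Csf1 at 0.38 (0.06 to 0.70, adjusted p = 0.149) and Csf3r at -0.34 (-0.68 to -0.00, adjusted p = 0.205). Csf2ra was a DEG between genotypes under CIH and passed FDR alone under NX in males, and this difference between treatments did not pass the adjusted test with the filter on low counts.

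Likeness of pattern was measured as the smaller of the Pearson correlations of log2 CPM over the 19 female and over the 20 male libraries, among 13432 genes above the filter in both tables. Groups, libraries and their scaling are shared by all genes, so these are descriptions. Csf1 was most like Itgax (r = 0.995 in females and 0.998 in males), Cst7 (0.994 and 0.995) and Axl (0.993 in each), which are genes known to be high in plaque-associated microglia. Csf2ra was most like Grn (0.965 and 0.966), which encodes progranulin, Cd52 (0.974 and 0.964) and Nucb1 (0.963 and 0.967). The genes given here for Csf1r are Wasf2 (0.879 and 0.925) and the fructose transporter Slc2a5 (0.867 and 0.905). Csf2rb2 was most like Lacc1 (0.83 and 0.873), Atp6v0a2 (0.857 and 0.829) and Icosl (0.836 and 0.825), and Csf2rb was most like Fyb (0.685 and 0.774), Wdr11 (0.66 and 0.891) and Skil (0.658 and 0.893). For Csf3r the closest genes were Mink1 (0.74 and 0.671), Crocc (0.685 and 0.669) and R3hdm1 (0.679 and 0.663). Among the members themselves, Csf1 and Csf2ra had r = 0.986 in females and 0.877 in males, and Csf1 and Csf1r had -0.772 and -0.687.

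Other ligands and receptors of the family were mostly at the detection limit. Csf2 and Csf3, which encode GM-CSF and G-CSF, had at most 8 and 11 counts in any library, and Il3, Il5 and Il5ra had at most 4, 6 and 9. Of the 8 genes on this list 2 or 3 were tested per comparison. Il3ra, the alpha chain of the IL-3 receptor that pairs with the beta chains above, rose in all 4 genotype comparisons. Its log2FC was 2.25 (2.48 without F 5XFAD NX 4) and 2.49 in females (adjusted p = 0.0175 and 1.23e-07) and 2.41 and 3.76 in males (0.000256 and 5.22e-09) under NX and CIH, and it fell by 1.05 in WT CIH males (adjusted p = 0.00171). Ptprz1, a further receptor of IL-34, rose between genotypes in females under CIH (1.54, adjusted p = 0.0206) and in males under NX (1.80, adjusted p = 0.0456), and it rose in WT CIH males (2.05, adjusted p = 0.0244). It had -0.19 (adjusted p = 0.768) in females under NX, or -0.04 (adjusted p = 0.94) without F 5XFAD NX 4, and -0.79 (adjusted p = 0.236) in males under CIH. Astrocytes express Ptprz1, and 3 of 6 astrocyte markers rose and 1 fell in females under CIH and 2 rose and 1 fell in males under NX, and 1 of 5 tested rose in WT CIH males, where 51.9%, 17.8% and 28.6% of all genes passed in either direction. Their summed level was 158 to 193 CPM in WT CIH and 222 to 617 CPM in 5XFAD CIH females, and 130 to 173 CPM in WT NX, 152 to 211 CPM in WT CIH and 357 to 962 CPM in 5XFAD NX males. It was also 214 to 583 CPM in 5XFAD CIH males, where Ptprz1 did not pass against WT CIH, and its part in the Ptprz1 values was not tested. Sdc1, a proteoglycan that binds IL-34, rose in females under CIH (1.55, adjusted p = 0.00511).

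The signalling genes next to CSF1R moved in both directions. Of 24 tested, 3 rose and 4 fell in females under NX (6 and 7 without F 5XFAD NX 4), 7 rose and 10 fell under CIH, 3 rose and 4 fell in males under NX, and 8 rose and 10 fell under CIH, with list medians of -0.09, -0.03, -0.10 and -0.05. The shares and medians of all genes are those given with the microglia markers above, and 17 of 24 genes passed in females under CIH where 51.9% of all genes did. The DEGs on the list were all higher in 5XFAD. Tyrobp, the adaptor DAP12, had a log2FC of 1.46 and 1.76 in females and 1.49 and 2.69 in males under NX and CIH (adjusted p = 0.039, 1.15e-07, 0.000728 and 9.98e-08). The Src-family kinase Fyn had 1.52, 1.79, 1.38 and 1.70 (adjusted p = 0.021, 2.37e-08, 3.96e-05 and 2.56e-08). Fgr, of the same kinase family, rose by 2.37 in females under CIH and by 1.47 and 2.16 in males (adjusted p = 1.3e-08, 6.01e-05 and 4.56e-08), and its log2FC was 1.20 in females under NX (adjusted p = 0.07). Without F 5XFAD NX 4 the 3 DEGs of the list in that comparison were Tyrobp (1.70, adjusted p = 4.16e-05), Fyn (1.73, adjusted p = 2.96e-06) and Fgr (1.36, adjusted p = 0.00943). Mapk3, the kinase ERK1, was a DEG in males under CIH alone among these comparisons (1.07, adjusted p = 3.01e-06). In WT CIH males, where 28.6% of all genes passed, 4 of the 24 rose and 7 fell, with Tyrobp at -0.76 (adjusted p = 0.00051), Fgr at -0.78 (adjusted p = 0.00251) and Mapk3 at -0.47 (adjusted p = 0.00266).

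On the JAK-STAT list of 14 genes, 2 rose and 0 fell in females under NX (2 and 1 without F 5XFAD NX 4), 4 rose and 3 fell under CIH, 2 rose and 1 fell in males under NX, and 3 rose and 3 fell under CIH, with list medians of 0.01, -0.04, -0.12 and -0.09. Of all genes, 13.9%, 51.9%, 17.8% and 49% passed in these comparisons. Socs2, a feedback inhibitor of JAK-STAT signalling, rose in all 4 (log2FC 1.75, 2.12, 2.23 and 2.30, adjusted p = 0.0179, 1.06e-07, 0.00142 and 0.000193), and had 1.88 (adjusted p = 0.000735) in females under NX without F 5XFAD NX 4. Pim1, a kinase induced by STAT5, fell in females under CIH (-0.48, adjusted p = 0.0181) and in males under NX (-0.92, adjusted p = 0.0303), and Cish, an inhibitor of the same arm, did not pass in any comparison (log2FC -0.54, -0.45, -0.78 and 0.35).

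Of the 6 transcription factors known to act on Csf1r, 0 were DEGs in any comparison. Under NX 0 passed FDR < 0.05 in either sex, and without F 5XFAD NX 4 there were 2 that rose (Cebpa and Irf8) and 1 that fell (Spi1) in females, where 44% of all genes passed. Under CIH, 4 rose and 2 fell in females (51.9% of all genes passed) and 4 rose and 1 fell in males (49%). Irf8 rose by 0.37 and 0.61 (adjusted p = 4.7e-05 and 0.000127) and Cebpa by 0.30 and 0.68 (adjusted p = 0.00561 and 5.92e-05). Spi1, which encodes PU.1, fell by 0.17 in females (adjusted p = 0.0413) and rose by 0.58 in males (adjusted p = 0.0156), and it fell by 0.79 in WT CIH males against WT NX (adjusted p = 0.000539). Cebpb was at -0.42 in females (adjusted p = 0.000633) and 0.45 in males (adjusted p = 0.0385).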

How the data were processed

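Microglial RNA of 39 libraries was examined, 19 from females and 20 from males, grouped by the sample labels. The published methods speak of independent samples, and each library was taken as 1, so p-values measure the spread between libraries. They also state a lower oxygen level and more hours a day than the labels, whose values are used. The authors deposited raw counts per gene without normalization, and FPKM values. From the values, female FPKM are divided by each library's total and male FPKM by an effective library size of 0.794 to 1.20 times it. Gene length is a column that the authors deposited for males, and in females it was taken from count and FPKM. The submitters' processing notes name HISAT2 and GRCm38/mm10. The counting tool, its version and its use of strand are not given in the sources used here.

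Only the groups compared entered a fit. Genes were kept where CPM exceeded 1 in 3 or more of those libraries, and their counts went into edgeR 4.0.16 under R 4.3.3, with TMM factors and the quasi-likelihood F test. DEGs had FDR < 0.05 and an absolute log2FC above 1. The interaction was fitted over 4 groups. The Csf1 to Csf1r ratio of FPKM was compared with two-sided exact permutation tests (scipy 1.17.1). Fits were tested on simulated data. Libraries of a group were no duplicates (the lowest chi-square over its degrees of freedom was 4.59 among 76 pairs). Alternatives were DESeq2 1.42.0, its size factors, the likelihood ratio test, scaling by total counts, no filter, FDR alone, limma 3.58.1 on log2(FPKM + 1) and log2(FPKM + 0.1), all groups in 1 fit, the replicate number as a block, and each library left out. List counts without F 5XFAD NX 4 were added after seeing the data. Genes named are the 7 members, their 3 closest genes by correlation, and up to 4 genes per pathway list, those that were DEGs in most comparisons and then of largest log2FC. A few items that this rule names are not reported here. The members and lists were chosen with earlier results of these data known. RefSeq promoters were searched for motifs in 250 bases.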

Additional observations from a re-analysis of the deposited data

Results flagged for a closer look

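The 56 groups of values (7 genes in 8 groups) were examined for a library that stands apart from the others of its group by Dixon's criterion, and 4 did, where chance alone marks about 1 in 20 groups. Csf2ra was at 33.3 normalised FPKM in F 5XFAD NX 4, against 52.4 to 56.2 in the other 4 libraries of that group. Csf2rb2 was at 25.6 in F 5XFAD CIH 3, against 16.8 to 19.02 in the others. Csf1 was at 5.95 in M WT CIH 1, against 4.00 to 4.201 in the others. Csf1 was at 90.8 in M 5XFAD CIH 4, against 112 to 120 in the others.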

How the results depend on the processing

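Of 1270 log2FC values of the 7 genes under the alternatives, 1164 kept their direction and their side of FDR < 0.05, 62 no longer passed, 12 newly passed, and 32 changed sign without a call on either side (at most 0.18 in size). None of the called values reversed. The count of DEGs among the genes was the same under each alternative except as follows. With FDR alone it was 2 and 4 in females (NX and CIH genotype comparisons, 1 and 1 before), 4 and 4 in males (1 and 2 before) and 1 in WT NX vs WT CIH males (0 before). In WT NX vs 5XFAD NX females it was 0 with the replicate number as a block, where Csf1 had a log2FC of 3.18 (adjusted p = 0.115), and 0 to 1 with each library left out. Scaling by total counts in place of TMM moved the median of all genes to -0.17 and -0.21 in the female and -0.16 and -0.43 in the male genotype comparisons (NX and CIH), and to -0.21 in the male interaction. Under the replicate block the log2 ratio of Csf1 to Csf1r had an exact permutation p of 0.0625, the smallest that 5 pairs allow, at 4.57 (females, CIH), 4.56 (males, NX) and 4.75 (males, CIH), which complete pairs leave as they were by arithmetic. In WT NX vs 5XFAD NX females, with 4 pairs, it was 3.16 (exact permutation p = 0.125, the smallest that 4 pairs allow). With each library left out it ran from -0.27 to -0.11 in WT NX vs WT CIH males and from -0.046 to 0.064 in 5XFAD NX vs 5XFAD CIH males. Libraries share only a replicate number: the correlation of same-numbered deviations was above 0.1 in every pair in 0 of 8 comparisons (lowest -0.494, highest 0.349), so the paired fits are given here alone. The block moved DEGs over all genes in WT NX vs 5XFAD NX females from 869 to 7, and it took adjusted p to 0.180 for Csf2ra there, and to 0.163 for Csf1r, 0.0902 for Csf2ra and 0.0884 for Csf2rb2 in WT NX vs 5XFAD NX males. Il34 had at most 46 counts and varied between libraries of a group, and 4 or 5 libraries a group limit small changes.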
